A study of Mus musculus with 24 samples.

Results

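The 32 genes described here encode the cartilage matrix and the regulators of chondrocytes, the cells that make it: fibrillar collagens and collagen IX, aggrecan and its link protein, matrilins, small secreted cartilage proteins, the SOX factors of chondrocytes, the Indian hedgehog and parathyroid hormone receptor pair, and enzymes that sulfate chondroitin. They were taken by gene symbol from the platform's annotation, with 1 probe set per gene, that with the highest mean over the 24 arrays. All 32 were found among 18193 genes with a probe set of a single symbol. Of these, 30 were among the 12811 genes tested, which had to exceed the array's own median on at least 3 arrays. Ucma exceeded it on 1 array and Col10a1 on 0, so both stayed outside that test, and for them a fit with no filter is given.

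Cartilage is laid down when mesenchymal cells condense and switch on SOX9, which with SOX5 and SOX6 drives the genes of type II, IX and XI collagen, aggrecan, link protein and matrilins. Aggrecan, carried on hyaluronan and held there by link protein, gives the tissue its resistance to compression, and the collagen fibrils give it tensile strength. Chondrocytes that leave proliferation make Indian hedgehog, then type X collagen as they become hypertrophic, under the restraint of parathyroid hormone-related protein acting on its receptor PTH1R. In the embryonic head the cartilages include Meckel's cartilage in the mandible and the nasal capsule above the palate in the maxilla, and most of the facial cartilage comes from cranial neural crest.

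The samples were jaws of C57B6 mouse embryos at embryonic day 14.5. Wnt1cre;Tgfbr2fl/+ mice had been crossed with Tgfbr2fl/fl mice, so that mutants lost the type II TGF-beta receptor where Wnt1-Cre acts, in neural crest and its descendants, and not in jaw tissue of other origin such as muscle fibres. Mutants were picked out by a cleft palate and a defect of the calvaria, and the controls were littermates whose own alleles the labels do not give. Maxilla and mandible were each cut into a distal and a proximal piece, which gives 8 groups by genotype, jaw and end, with 3 arrays per group. Nothing in the labels tells if replicates came from different embryos or litters or from pooled tissue. The p-values rest on the spread between the 3 samples of a group, pooled over the 8 groups, and part of that spread may be technical. Groups with a wide spread thus widen the standard error of every comparison, those between controls included.

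Values are log2 probe set signals, as deposited after RMA, which summarises the probes of a set and normalizes between arrays. They spanned 3.44 to 14.83, with the lowest array median at 6.93, and values near the lower end are mostly background, so that a large fall of a gene is understated there. Tgfbr2, the deleted gene, had means of 11.61 to 12.07 in the control groups and 12.26 to 12.40 in the mutant groups. Xist, the transcript of the inactive X chromosome in females, was at 12.43 to 13.43 on 7 control arrays and at 6.28 to 6.66 on 5, while all 12 mutant arrays had 12.49 to 13.26. Each control group held both kinds, so its arrays did not all come from 1 embryo, and the 5 Xist-low arrays were distal maxilla 3, proximal maxilla 2 and 3, distal mandible 3 and proximal mandible 3. No mutant array was Xist-low, so sex is not balanced between the genotypes. The sources used here do not give the exons that the allele removes, and this probe set therefore does not check the genotype labels. A difference is the mutant mean minus the control mean, where no other order is named, ± its standard error from 1 limma fit to all 24 arrays, and limma's p-values were adjusted over 12811 genes by the Benjamini-Hochberg method and called at 0.05. A piece of tissue with fewer chondrocytes and a piece with less cartilage RNA per chondrocyte cannot be told apart in such data.

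The members were low together on 5 of the 24 arrays, and all 5 were of mutants. After each gene was centred on its mean over the 24 arrays, the mean over the 30 tested members was -1.69 on mutant distal maxilla 1, -1.77 and -1.89 on proximal maxilla 1 and 2, and -1.57 and -1.39 on distal mandible 1 and 3. The other mutant arrays of these regions had means of 0.42 and 0.41 (distal maxilla 2 and 3), 0.46 (proximal maxilla 3) and 0.064 (distal mandible 2). The mutant proximal mandible had 0.52, 1.07 and 0.77. Among the controls the means ran from -0.82 to 1.23, with proximal mandible 3 and distal mandible 3 (-0.35) at the low end, both of them Xist-low, and proximal maxilla 1 at the high end. The other Xist-low controls were not low: proximal maxilla 3 had 1.19, proximal maxilla 2 had 0.19 and distal maxilla 3 had 0.18. The 5 low arrays stood below the range of all 12 controls, and the other arrays of the same mutant groups stood inside it.

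**Figure D1:**
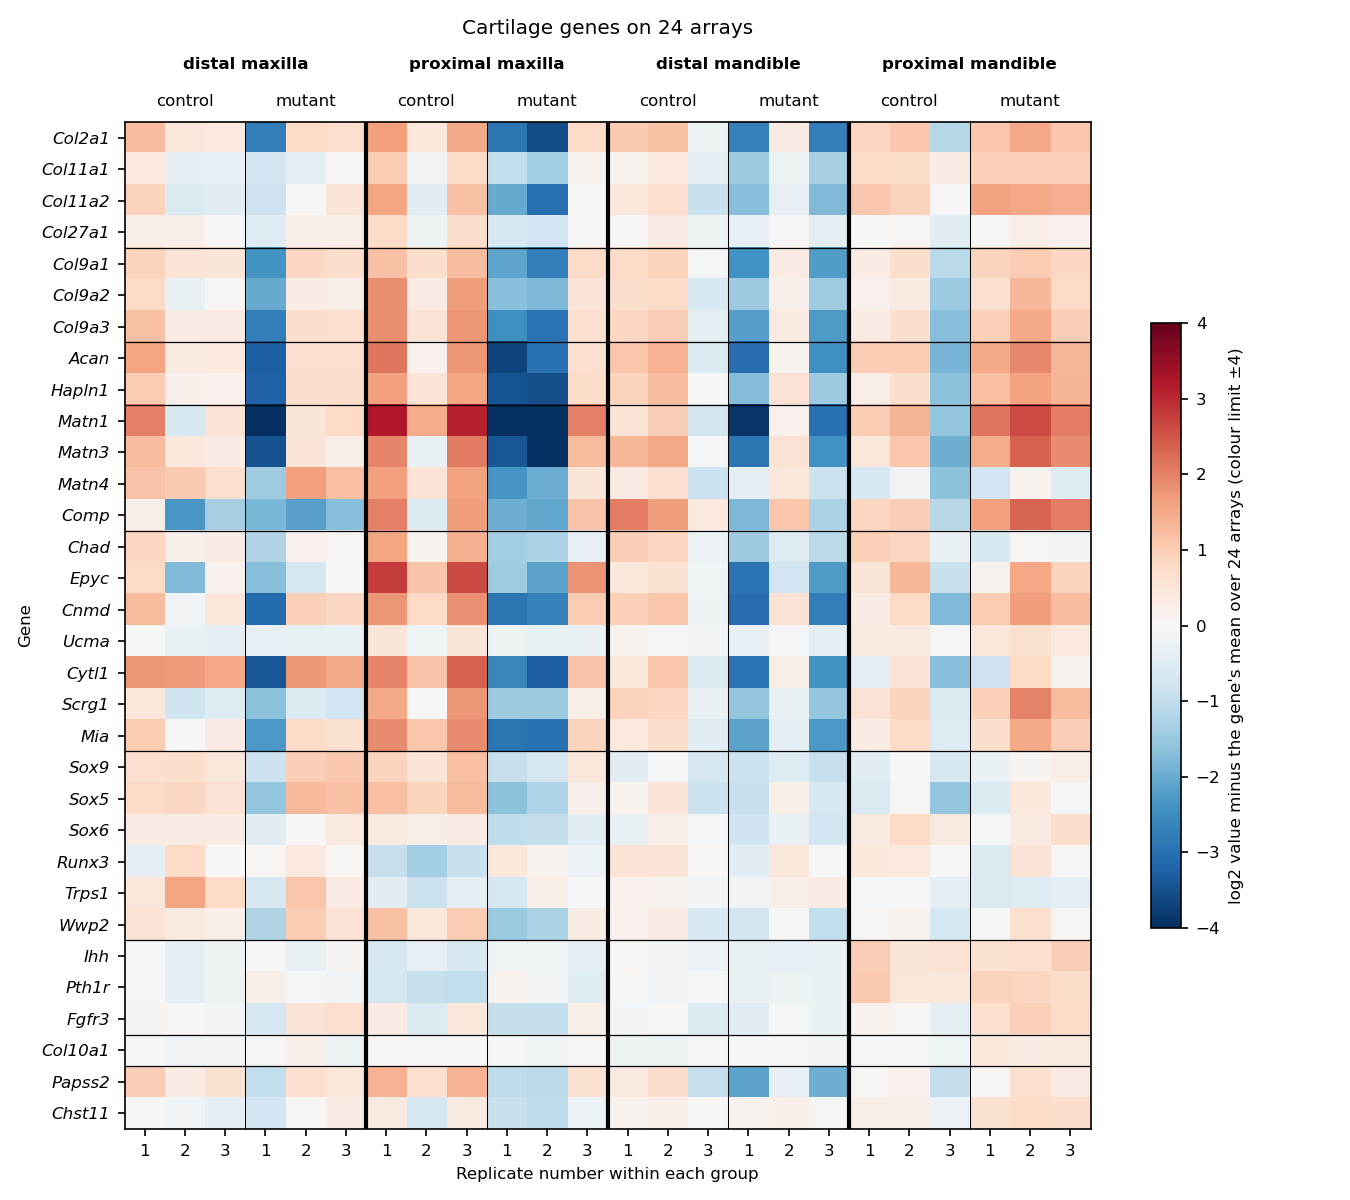
Colour gives each gene's log2 value minus its mean over the 24 arrays, for 32 genes in rows (grouped by role) and 24 arrays in columns (grouped by region and genotype, replicates 1 to 3). Blue columns in mutant distal maxilla 1, proximal maxilla 1 and 2 and distal mandible 1 and 3 hold most collagen, aggrecan, link protein and matrilin genes at low values, while Ihh and Pth1r lay above the region's controls on the 3 low maxilla arrays and below them on the 2 low mandible arrays.

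Of 10 markers that define cartilage, 7 lay above the array median on every array, the 5 low ones included. They were Col2a1, the gene of the main cartilage collagen, Col9a1, Col9a2, Col9a3, Hapln1, Cnmd and Sox9. The other 3 did not: Acan and Matn1 lay above it on 20 arrays each and Matn3 on 21. Ihh, a marker of chondrocytes on the way to hypertrophy, exceeded the array median on 7 arrays and Col10a1, the collagen of hypertrophic cartilage, on 0.

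Most members had a wide range. Over the 24 arrays the median range (highest minus lowest value) was 3.75 for the tested members and 0.668 for all 12811 genes. Over the 12 controls alone it was 2.44 against 0.489. Matn1, which encodes a matrix protein that links collagen and aggrecan networks, had the widest range at 8.42, from 4.97 on mutant distal maxilla 1 to 13.39 on control proximal maxilla 1. Its neighbours in range were Matn3 (6.57), Acan (5.85), Cytl1 (5.79) and Epyc (5.77). Sox6 (1.79), Chst11 (1.77), Ihh (1.66) and Col27a1 (1.55) had the narrowest ranges of the tested members, each still wider than the median of all genes. Ihh is dim on these arrays, and 6 of the 7 arrays through which it passed the filter on low values were of the proximal mandible, so it had to differ between that region and the others, and its calls there are no support.

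The upstream regions of these 5 wide-ranging genes are shown because these members had the widest ranges. All 5 lay below the region's controls on the 5 low arrays, except Epyc on mutant distal maxilla 1. Each is the run of 250 bases before the RefSeq start (GRCm38.p6), all 5 on the plus strand, with capitals marking the letters of any motif searched. The windows are chr4:130944135-130944384 (Matn1), chr12:8947679-8947928 (Matn3), chr7:79052976-79053225 (Acan), chr5:37735269-37735518 (Cytl1) and chr10:97643818-97644067 (Epyc, 1 of 2 windows of that gene).
Matn1: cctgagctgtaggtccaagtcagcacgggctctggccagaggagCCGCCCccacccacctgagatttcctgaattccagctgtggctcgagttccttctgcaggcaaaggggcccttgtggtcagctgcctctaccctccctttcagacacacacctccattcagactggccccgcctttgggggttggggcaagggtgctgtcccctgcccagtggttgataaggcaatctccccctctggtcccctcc
Matn3: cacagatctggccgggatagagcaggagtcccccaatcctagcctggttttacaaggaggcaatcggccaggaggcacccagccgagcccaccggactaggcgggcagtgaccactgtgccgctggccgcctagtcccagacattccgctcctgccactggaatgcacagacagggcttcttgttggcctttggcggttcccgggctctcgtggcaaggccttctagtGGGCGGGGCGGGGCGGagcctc
Acan: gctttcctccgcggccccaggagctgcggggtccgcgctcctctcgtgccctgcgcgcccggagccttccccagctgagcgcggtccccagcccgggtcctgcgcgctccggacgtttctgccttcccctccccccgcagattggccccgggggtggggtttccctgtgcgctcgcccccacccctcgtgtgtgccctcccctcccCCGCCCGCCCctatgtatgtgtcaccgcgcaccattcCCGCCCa
Cytl1: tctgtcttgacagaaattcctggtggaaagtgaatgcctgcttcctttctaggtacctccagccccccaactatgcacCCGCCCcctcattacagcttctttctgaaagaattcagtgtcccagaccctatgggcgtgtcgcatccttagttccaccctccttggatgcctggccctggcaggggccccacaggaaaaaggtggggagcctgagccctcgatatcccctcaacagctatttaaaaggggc
Epyc: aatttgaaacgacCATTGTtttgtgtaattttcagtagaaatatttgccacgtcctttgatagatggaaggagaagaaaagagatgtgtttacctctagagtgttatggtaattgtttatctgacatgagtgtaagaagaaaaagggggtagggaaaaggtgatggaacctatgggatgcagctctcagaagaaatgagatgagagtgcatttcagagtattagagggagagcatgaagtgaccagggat

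The motifs searched on both strands were 2 forms of the core that SOX factors bind, ACAAAG and ACAATG, the GC box GGGCGG and the TATA box TATAAA. Windows were in the table for 26 of the 32 members, 39 windows in all. GGGCGG was in 51.3% of them and in 32.7% of all 32851 windows, and it was found in Matn1 (1 match), Matn3 (3), Acan (3) and Cytl1 (1). ACAAAG was in 20.5% against 16.5%, ACAATG in 12.8% against 10.7%, and TATAAA in 12.8% against 12.4%. Of the 5 windows printed, only that of Epyc held a SOX core, ACAATG, read on the other strand. A match describes letters in this window and is no measured binding site.

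In controls, differences between regions passed in the fit to all 24 arrays for Pth1r, Ihh, transcription factors and 1 matrix gene, Matn4. Ihh was selected for by the filter on low values. The collagens and aggrecan did not pass in that fit. Between the proximal ends, 6 members passed: 3 were higher in the mandible (16.6% of all tested genes were) and 3 lower (17%). Pth1r, the receptor for parathyroid hormone-related protein, was at 10.58, 10.36 and 10.30 on the 3 proximal maxilla arrays and at 12.31, 11.72 and 11.70 on the 3 proximal mandible arrays. No values overlapped, and the mandible was higher by 1.50 ± 0.16 (adjusted p = 6.59e-06). Ihh, the hedgehog signal of prehypertrophic chondrocytes, was at 6.22, 6.55 and 6.26 and at 7.88, 7.37 and 7.45, a difference of 1.23 ± 0.14, which is given as a description; with no filter, 18193 genes in the fit, its adjusted p was 1.15e-05 by limma. Runx3, a runt-domain factor that acts with RUNX2 in chondrocyte maturation, was at 6.84, 6.41 and 6.87 and at 8.17, 8.15 and 7.73, higher in the mandible by 1.31 ± 0.30 (adjusted p = 0.00246). All 3 are also expressed outside cartilage, Pth1r above all in osteoblasts, and the list of osteoblast genes was higher in the proximal mandible as well, in 8 of its 8 tested genes. The part of bone in the Pth1r, Ihh and Runx3 differences was not tested.

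The 3 members that were lower in the control proximal mandible than in the control proximal maxilla were Sox9, Sox5 and Matn4. Sox9, the master regulator of chondrocyte fate, was at 10.47, 10.10 and 10.80 in the proximal maxilla and at 9.18, 9.59 and 8.95 in the proximal mandible, without overlap and with a difference of -1.22 ± 0.40, mandible minus maxilla (adjusted p = 0.0248). Sox5, its partner, differed by -1.81 ± 0.63 (adjusted p = 0.0321), and Matn4, a matrilin found beyond cartilage too, by -2.08 ± 0.74 (adjusted p = 0.0364). SOX9 is used in nasal glands and epithelium as well as in cartilage, and the nasal epithelium list had centred means of 2.13, 2.38 and 2.13 in the control proximal maxilla against -0.98, -0.86 and -0.80 in the control proximal mandible. With the muscle and nasal list means as covariates, the 3 differences turned to 0.66 (Sox9), 0.98 (Sox5) and 1.40 (Matn4), none of them called, and that of Runx3 to 0.76 (adjusted p = 0.369), also not called. In these controls the nasal mean nearly coincides with the jaw, so the covariate fit cannot separate nasal tissue from jaw. The part of nasal tissue in these differences was not tested. The remaining 24 tested members did not pass, among them Col2a1 at -0.93 ± 1.06 and Acan at -1.31 ± 1.18.

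The distal ends of the 2 jaws gave no called member in controls, against 3.08% of all tested genes higher in the mandible and 5.73% lower, while 3 members had an unadjusted p under 0.05. Comp, a pentameric thrombospondin of cartilage and tendon, came closest. It was at 8.40, 5.83 and 6.83 in the distal maxilla and 10.23, 9.85 and 8.56 in the distal mandible, a difference of 2.52 ± 0.93 (adjusted p = 0.0945). The lowest mandible value lay above the highest maxilla value. The other 2 were Trps1 at -0.88 ± 0.34 and Sox9 at -0.99 ± 0.40. With genotype and replicate number as a random block, all 3 were called (adjusted p = 0.0373 for Comp, 0.0327 for Trps1 and 0.0426 for Sox9). The share of all genes called under this block is not given here, so the rise cannot be read as particular to the members.

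Along the control maxilla, Trps1, Runx3 and Pth1r were lower proximally, 3 of 30 members where 5.09% of all tested genes were lower and 3.33% higher. Trps1, a GATA-type repressor active in growth plate and perichondrium, was at 10.97, 12.07 and 11.31 distally and 10.05, 9.66 and 10.11 proximally, a difference of -1.51 ± 0.34 (adjusted p = 0.0122). Runx3 differed by -1.18 ± 0.30 (adjusted p = 0.0224) and Pth1r by -0.69 ± 0.16 (adjusted p = 0.0161). The count was 1 without control distal maxilla 2 or without control proximal maxilla 1, and 0 in a fit on just the arrays compared. Matrix genes had positive values that did not pass, with Epyc, a small leucine-rich proteoglycan, at 2.46 ± 0.90 (adjusted p = 0.0994).

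Along the control mandible, 2 members were higher proximally, Pth1r by 0.70 ± 0.16 (adjusted p = 0.0153) and Ihh by 0.78 ± 0.14, given as a description (adjusted p = 0.00372 with no filter). Of all tested genes 3.34% were higher and 2.44% lower. In the distal mandible Ihh was at 6.96, 6.78 and 6.64 and Pth1r at 11.29, 11.12 and 11.22, so that each proximal value exceeded each distal one. Ihh and Pth1r thus stood highest in the proximal mandible in both genotypes, where the mutants had 7.49, 7.54 and 7.88 for Ihh and a mean of 12.11 ± 0.098 (SD, n = 3) for Pth1r. Pth1r kept its call between control proximal jaws in 17 of 17 alternative settings and its call along the control mandible in 13 of 17.

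**Figure D2:**
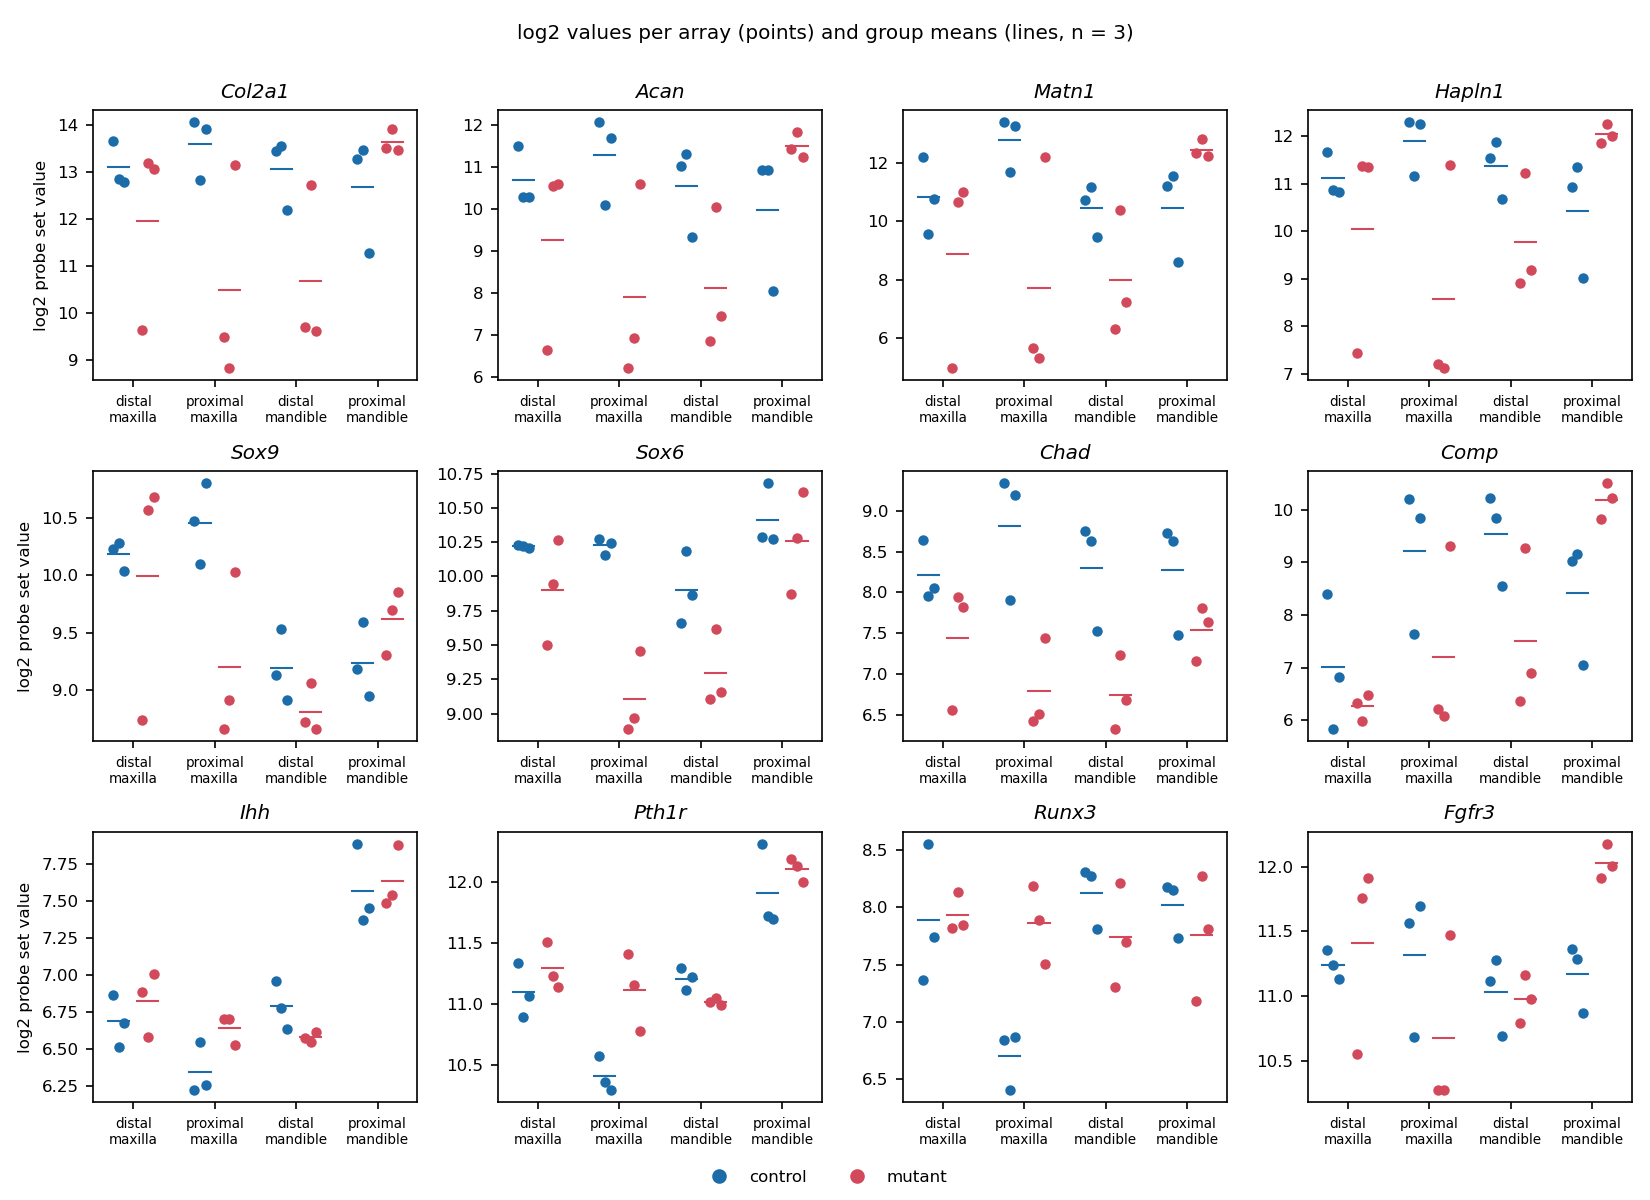
Each panel plots 1 gene, with log2 values on the vertical axis (its own scale, not starting at 0) and the 4 regions on the horizontal axis; points are arrays, blue for control and red for mutant, and lines are means of 3. Col2a1, Acan, Matn1 and Hapln1 split the mutant maxilla and distal mandible arrays into high and low ones, whereas Ihh and Pth1r separate the proximal mandible from the other regions.

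The proximal maxilla was the region where mutants and controls differed most in these genes. Of the 30 tested members 19 fell and 2 rose, where 11.1% of all tested genes fell and 12.2% rose. The median difference of the members was -2.02, and that of all genes 0.0091. Mutant arrays 1 and 2 each lay below all 3 controls for 26 members, against 39.3% and 31.7% of all genes. Mutant proximal maxilla 3 lay below them for 8 members, against 28.9%. Only these 8 (Matn4, Chad, Mia, Sox9, Sox5, Sox6, Wwp2 and Papss2) had all mutant values below all control values, where 16.7% of all genes did, and 2 members (Runx3 and Pth1r) had all above, where 19.5% did.

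Among the fibrillar collagens, all 4 fell in the mutant proximal maxilla. Col2a1 was at 14.05, 12.83 and 13.90 in controls and 9.49, 8.82 and 13.15 in mutants, with mutants 1 and 2 far below and mutant 3 between the controls. The control mean was 13.59 ± 0.66 and the mutant mean 10.49 ± 2.33 (SD, n = 3), which gave a difference of -3.11 ± 1.06, or 8.62-fold (adjusted p = 0.0416). Col11a1 and Col11a2, whose chains nucleate the type II fibrils, fell by 1.30 and 2.42. Col27a1, a fibrillar collagen of the growth cartilage, fell by 0.91. Of collagen IX, which decorates the surface of those fibrils, Col9a2 fell by 2.28 and Col9a3 by 2.97, while Col9a1 at -2.40 ± 0.88 did not pass (adjusted p = 0.0556).

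Aggrecan and link protein had the same split. Acan was at 12.07, 10.10 and 11.69 in control and 6.22, 6.93 and 10.59 in mutant proximal maxilla, and Hapln1 at 12.29, 11.16 and 12.25 and 7.22, 7.13 and 11.39. Mutant 3 lay inside the control range for both genes and mutants 1 and 2 below it. Acan fell by 3.37 (adjusted p = 0.0464) and Hapln1 by 3.32 (adjusted p = 0.0298), and the low Acan values lay below the array median. Matn1 was at 13.39, 11.68 and 13.26 in controls and at 5.65, 5.32 and 12.21 in mutants, and fell by 5.05 ± 1.65 (adjusted p = 0.0339). Matn4 fell by 2.56. Matn3 at -3.37 ± 1.29 (adjusted p = 0.0679) and Comp at -2.02 ± 0.93 (adjusted p = 0.128) missed the threshold.

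Of the 6 tested secreted cartilage proteins, 4 fell. Mia, a small secreted protein of chondrocytes, was at 12.45, 11.69 and 12.47 in control and 7.65, 7.58 and 11.45 in mutant proximal maxilla, where even the highest mutant lay below the lowest control. Its difference was -3.31 ± 0.87 (adjusted p = 0.0109). Chad, a leucine-rich protein that binds collagen and chondrocyte integrins, was at 9.34, 7.90 and 9.19 in controls and 6.42, 6.51 and 7.43 in mutants, without overlap and with a difference of -2.02 ± 0.46 (adjusted p = 0.00480). Epyc fell by 2.78 and Scrg1, a small protein of chondrogenic cells, by 1.99. Cnmd, the chondromodulin that keeps vessels out of cartilage, at -2.99 ± 1.13 and Cytl1, a cytokine-like protein of chondrocytes, at -3.40 ± 1.22 did not pass (adjusted p = 0.0641 and 0.0507).

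The 3 SOX factors fell as well. Sox6 was at 10.28, 10.16 and 10.24 in control and 8.89, 8.97 and 9.46 in mutant proximal maxilla. The controls lay close together and all 3 mutants were below them, and Sox6 had the smallest adjusted p of the members (-1.12 ± 0.21, adjusted p = 0.00136). Sox9 was at 10.47, 10.10 and 10.80 and 8.66, 8.91 and 10.03, a difference of -1.25 ± 0.40 (adjusted p = 0.0303), and mutant 3 was just below the lowest control. Sox5 fell by 2.01 and Wwp2, a ubiquitin ligase whose gene hosts a cartilage microRNA and which lies under SOX9 control, by 1.69. Papss2, the enzyme that makes the sulfate donor for chondroitin, fell by 1.64, while the chondroitin sulfotransferase gene Chst11 at -0.72 ± 0.27 did not pass (adjusted p = 0.0617).

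Runx3 and Pth1r went the other way in the mutant proximal maxilla, in a comparison that shares its control arrays with those between control regions. Runx3 was at 6.84, 6.41 and 6.87 in controls and 8.19, 7.89 and 7.51 in mutants, with no overlap, and rose by 1.16 ± 0.30 (adjusted p = 0.0102). Pth1r was at 10.58, 10.36 and 10.30 and 11.41, 11.16 and 10.78, and rose by 0.70 ± 0.16 (adjusted p = 0.00506). Mutant array 3, most of whose matrix genes lay inside the control range, had the lowest value of the mutants for both. Ihh at 0.30 ± 0.14, Fgfr3, the receptor that slows chondrocyte proliferation, at -0.64 ± 0.34 and Trps1 at 0.40 ± 0.34 did not pass.

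These calls depended on single arrays. The number of called members was 21, but 3 without mutant proximal maxilla 1 (Chad, Sox6 and Pth1r), 4 without mutant 2 (these and Runx3), 5 without control 1 or control 3, and 28 without mutant 3. With only the 6 arrays of this region in the fit, Sox6 and Runx3 remained. With array weights 30 were called, and the share of all genes called under the weights is not given here. With Xist above or below the array median as a covariate, a setting added after the data were seen, 26 members were called. They were among 2461 called genes in all. Runx3 was not called (0.94, adjusted p = 0.0528).

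Markers of nasal epithelium and skeletal muscle moved with the low arrays of the maxilla, as did those of macrophages and endothelium. Mutant proximal maxilla 1 and 2 had centred nasal epithelium means of -1.21 and -0.92 (11 tested genes), against 1.57 on mutant 3 and 2.13, 2.38 and 2.13 on the controls, and 8 of the 11 genes fell in the mutants of this region, led by Bpifa1 at -5.84 and Sult1e1 at -4.39. Their skeletal muscle means were 1.98 and 0.97 (17 genes), against -0.19 on mutant 3 and -1.52, -1.98 and -0.81 on the controls, and 11 of the 17 genes rose, led by Myog at 3.13. Mutant distal maxilla 1 stood likewise, with -0.33 for nasal epithelium and 1.18 for muscle. Of the other lists, 8 of 12 neuronal genes fell, and 10 of 11 keratinocyte, 8 of 10 mesenchyme, 7 of 10 macrophage and 6 of 10 endothelial genes rose, while 0 of 8 osteoblast and 0 of 5 osteoclast genes passed in either direction. Of 10 tendon genes 4 rose and 2 fell. Macrophage means were 0.88 and 0.51 on low mutant proximal maxilla 1 and 2, against 0.16 on mutant 3. In the distal maxilla they were 0.71 on low mutant 1, against -0.26 and -0.31 on mutants 2 and 3. Endothelial means were 0.39 and 0.31 against 0.049 in the proximal maxilla, and 0.38 against 0.022 and -0.086 in the distal maxilla. Keratinocyte means were highest on the low arrays in the proximal maxilla but not in the distal maxilla. In the proximal maxilla they were 0.94, 0.78 and 0.49 on mutants 1 to 3, against -2.29, -1.90 and -0.012 on the controls. In the distal maxilla low mutant 1 had 0.69, and mutants 2 and 3 had 1.52 and 0.68. With the muscle and nasal means as covariates 0 members were called by limma (2 at an unadjusted p under 0.05), but of all 12811 genes only 25 were, against 2984 without covariates. Leaving out these 3 maxilla arrays, picked for their low nasal values in an earlier look at these data, leaves mutant array 3 alone in this region, assumed to vary like the other groups. Then 0 members (2 at an unadjusted p under 0.05) and 159 genes in all were called, so calls were lost across all genes in both settings. The part of each piece's tissue makeup in the fall of the cartilage genes was not tested beyond this, and the mutant genotype and the low arrays cannot be told apart, since every low array was a mutant.

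**Figure D3:**
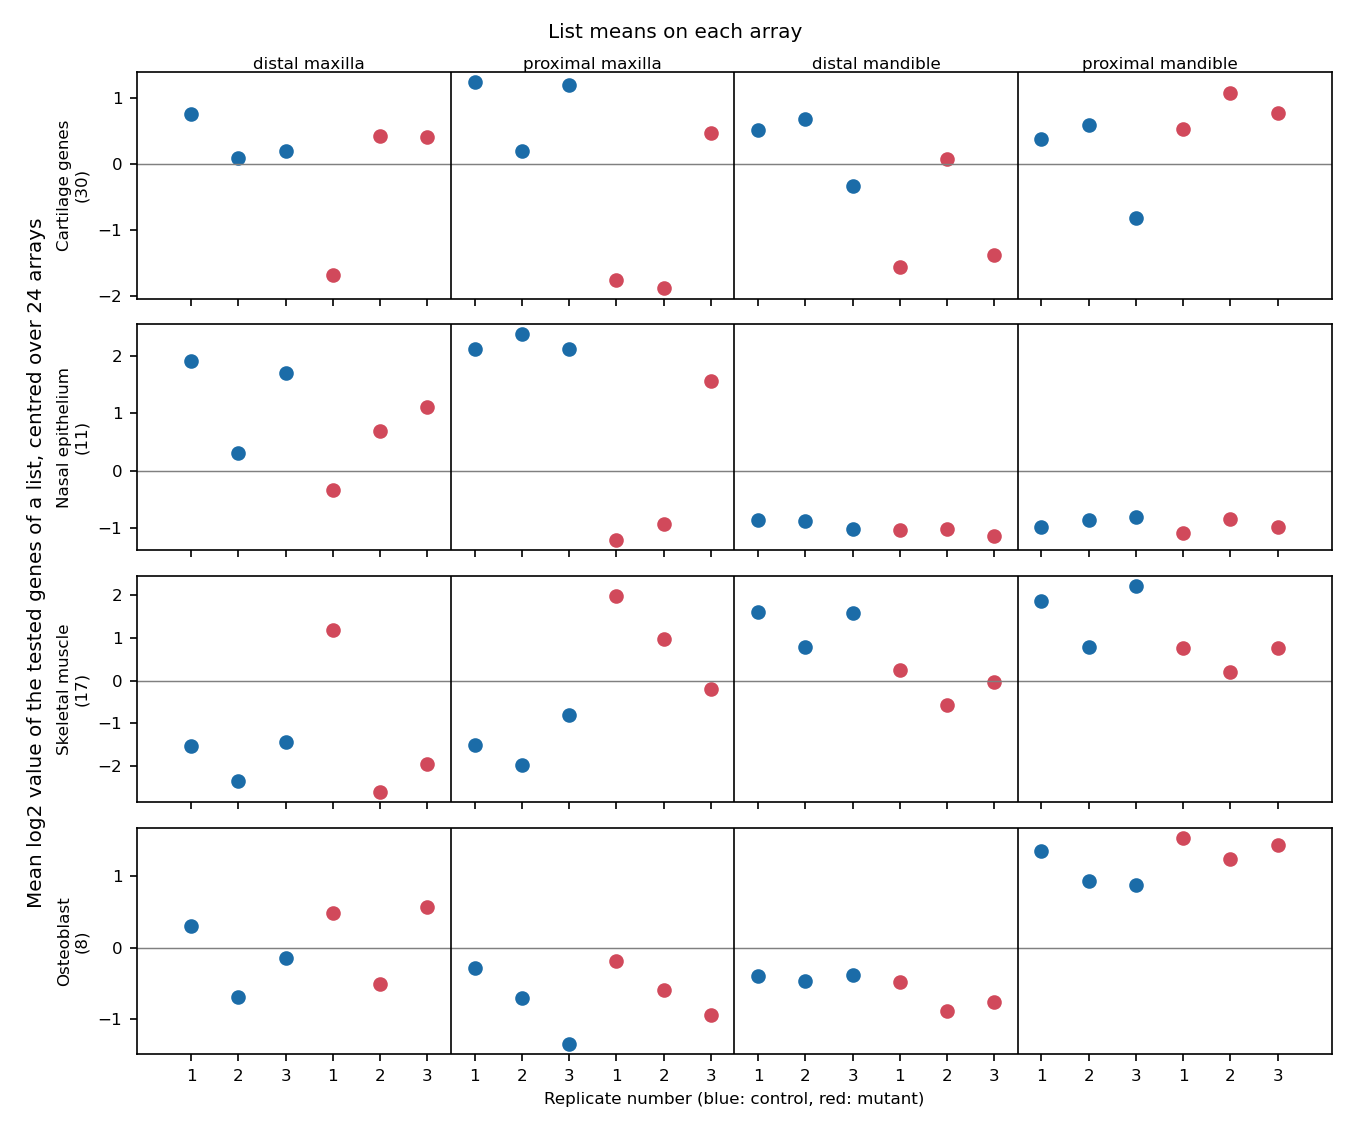
Each point is 1 array (blue control, red mutant; replicates 1 to 3 within each group), and the vertical axis gives the mean log2 value of the tested genes of a list, centred over the 24 arrays, for cartilage (30 genes), nasal epithelium (11), skeletal muscle (17) and osteoblast (8) lists. In the maxilla the mutant arrays low in cartilage genes were low in nasal and high in muscle genes, whereas in the distal mandible the nasal means of all 6 arrays lay between -1.13 and -0.86.

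In the distal maxilla no member was called, where 0.109% of all tested genes were higher and 0.0859% lower, and no member had an unadjusted p under 0.05. The median difference of the members was -0.64, and mutant array 1 held the low values. Acan was at 11.50, 10.28 and 10.29 in controls and 6.65, 10.54 and 10.59 in mutants, and Matn1 at 12.20, 9.55 and 10.77 and 4.97, 10.66 and 10.99. Mutant 1 lay below all 3 controls for 25 members (45.4% of all genes), and mutants 2 and 3 for 2 and 4 members (23.8% and 20.9%). Chad alone had all mutants below all controls (6.56, 7.94 and 7.82 against 8.64, 7.96 and 8.05), by a narrow gap, where 5.83% of all genes did so and 5.81% had all mutants above. On mutants 2 and 3 Sox9 lay above the controls, at 10.57 and 10.68 against 10.23, 10.28 and 10.04, as did Sox5, Matn4, Wwp2, Fgfr3 and Chst11.

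In the distal mandible no member was called either, with 0.273% of all tested genes higher and 0.468% lower. The members' median was -1.43, 28 of 30 differences were negative, and 11 members had an unadjusted p under 0.05. Chad had the smallest adjusted p. It was at 8.75, 8.63 and 7.53 in controls and 6.32, 7.23 and 6.68 in mutants, without overlap, and the difference was -1.56 ± 0.46 (adjusted p = 0.134). The mutants lay below all controls also for Scrg1 at -1.66 ± 0.57, Epyc at -2.28 ± 0.90 and Sox6 at -0.61 ± 0.21, and for Ihh and Pth1r with differences of -0.21 and -0.19. This makes 6 members without overlap below the controls (8.91% of all genes) and 0 above (13%).

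Mutant distal mandible arrays 1 and 3 carried the low values. Col2a1 was at 13.43, 13.55 and 12.19 in controls and 9.68, 12.71 and 9.62 in mutants, Acan at 11.02, 11.31 and 9.33 and 6.86, 10.05 and 7.46, and Comp at 10.23, 9.85 and 8.56 and 6.36, 9.27 and 6.89. The first and last mutant value lay below the controls in each case and mutant 2 lay among them. Arrays 1 and 3 were below all controls for 27 and 25 members, where 26.4% and 23.7% of all genes were, and array 2 for 6, where 22.1% were. The nasal list means lay close together here, at -0.86, -0.87 and -1.02 in controls and -1.04, -1.01 and -1.13 in mutants. The muscle means were lower in the mutants, at 0.25, -0.57 and -0.028 against 1.60, 0.79 and 1.57, but lowest on array 2, where cartilage genes were not low. Osteoblast means were -0.48, -0.89 and -0.77 against -0.39, -0.46 and -0.38. Keratinocyte means were 1.05, 0.52 and 1.35 in mutants against 0.24, -0.42 and 1.02 in controls, so here mutant arrays 1 and 3 were the higher ones. The part of any of these tissues in the cartilage values was not tested. With array weights, which give less weight to arrays far from their group, 11 members were called, and with muscle and nasal covariates 10. With the Xist covariate 1 was called (Chad, adjusted p = 0.0389 by limma). All of these were lower. Chad, Sox6, Mia, Col2a1, Col9a1, Acan, Cnmd and Papss2 were called under both the weights and the muscle and nasal covariates. The shares of all genes called under these settings are not given here.

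In the proximal mandible the matrix genes were at higher values in mutants, without a call. The background was 1.27% of all tested genes higher and 3.07% lower, and 2 members had an unadjusted p under 0.05. Of the 30 differences 26 were positive, with a median of 0.63 against -0.036 for all genes. In 15 members all mutants lay above all controls, where 8.86% of all genes did, and in 0 below, where 15.4% did. These 15 were the 6 collagen II, IX and XI genes, Acan, Hapln1, Matn1, Matn3, Comp, Cnmd, Scrg1, Fgfr3 and Chst11.

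Acan was at 10.94, 10.94 and 8.06 in control and 11.42, 11.84 and 11.25 in mutant proximal mandible, a difference of 1.53 ± 1.18 (adjusted p = 0.523). The third control was far below the first and second, and the gap between the mutants and those was small. Matn1 showed the same, at 11.21, 11.55 and 8.61 and 12.33, 12.80 and 12.23 with 2.00 ± 1.65. Control proximal mandible 3 was the lowest of its group for 29 of the 30 members, and the differences include that array, which was the Xist-low one of the group. The same array had the group's highest neuronal mean (0.66 against -1.18 and -0.74) and keratinocyte mean (-0.96 against -1.36 and -1.65). The part of sex or of tissue makeup in its low values was not tested. Of the mutants, array 1 lay above all controls for 15 members, array 2 for 25 and array 3 for 19, where 18.5%, 32.6% and 32% of all genes did. Array 1 stood apart over all genes, 59% of which lay below the 3 controls. Skeletal muscle means were 0.76, 0.21 and 0.76 in mutants against 1.87, 0.78 and 2.22 in controls and osteoblast means 1.54, 1.24 and 1.44 against 1.35, 0.94 and 0.88, and the part of either tissue in the cartilage values was not tested. Fgfr3 came closest to a call, at 11.36, 11.28 and 10.87 in controls and 11.91, 12.17 and 12.01 in mutants, where all mutants exceeded every control array of every region (0.86 ± 0.34, adjusted p = 0.160). Chst11 was next, at 0.62 ± 0.27 (adjusted p = 0.206). The members with negative differences were Chad at -0.74 ± 0.46, Trps1 at -0.31 ± 0.34, Runx3 at -0.26 ± 0.30 and Sox6 at -0.16 ± 0.21.

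Col10a1 was dim throughout and was not part of the test. In the mutant proximal mandible it was at 5.48, 5.35 and 5.41, in the control proximal mandible at 5.01, 5.08 and 4.88, and no control array of any region exceeded 5.12. With no filter on low values, 18193 genes in the fit, its difference of 0.42 ± 0.089 passed (adjusted p = 0.0168), the only member called there under that setting. Ucma, a vitamin K-dependent protein of early chondrocytes, was at 6.84, 6.19 and 6.85 in control and 6.15, 6.06 and 6.07 in mutant proximal maxilla, and with no filter its difference there was -0.53 ± 0.15 (adjusted p = 0.0184).

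**Figure D4:**
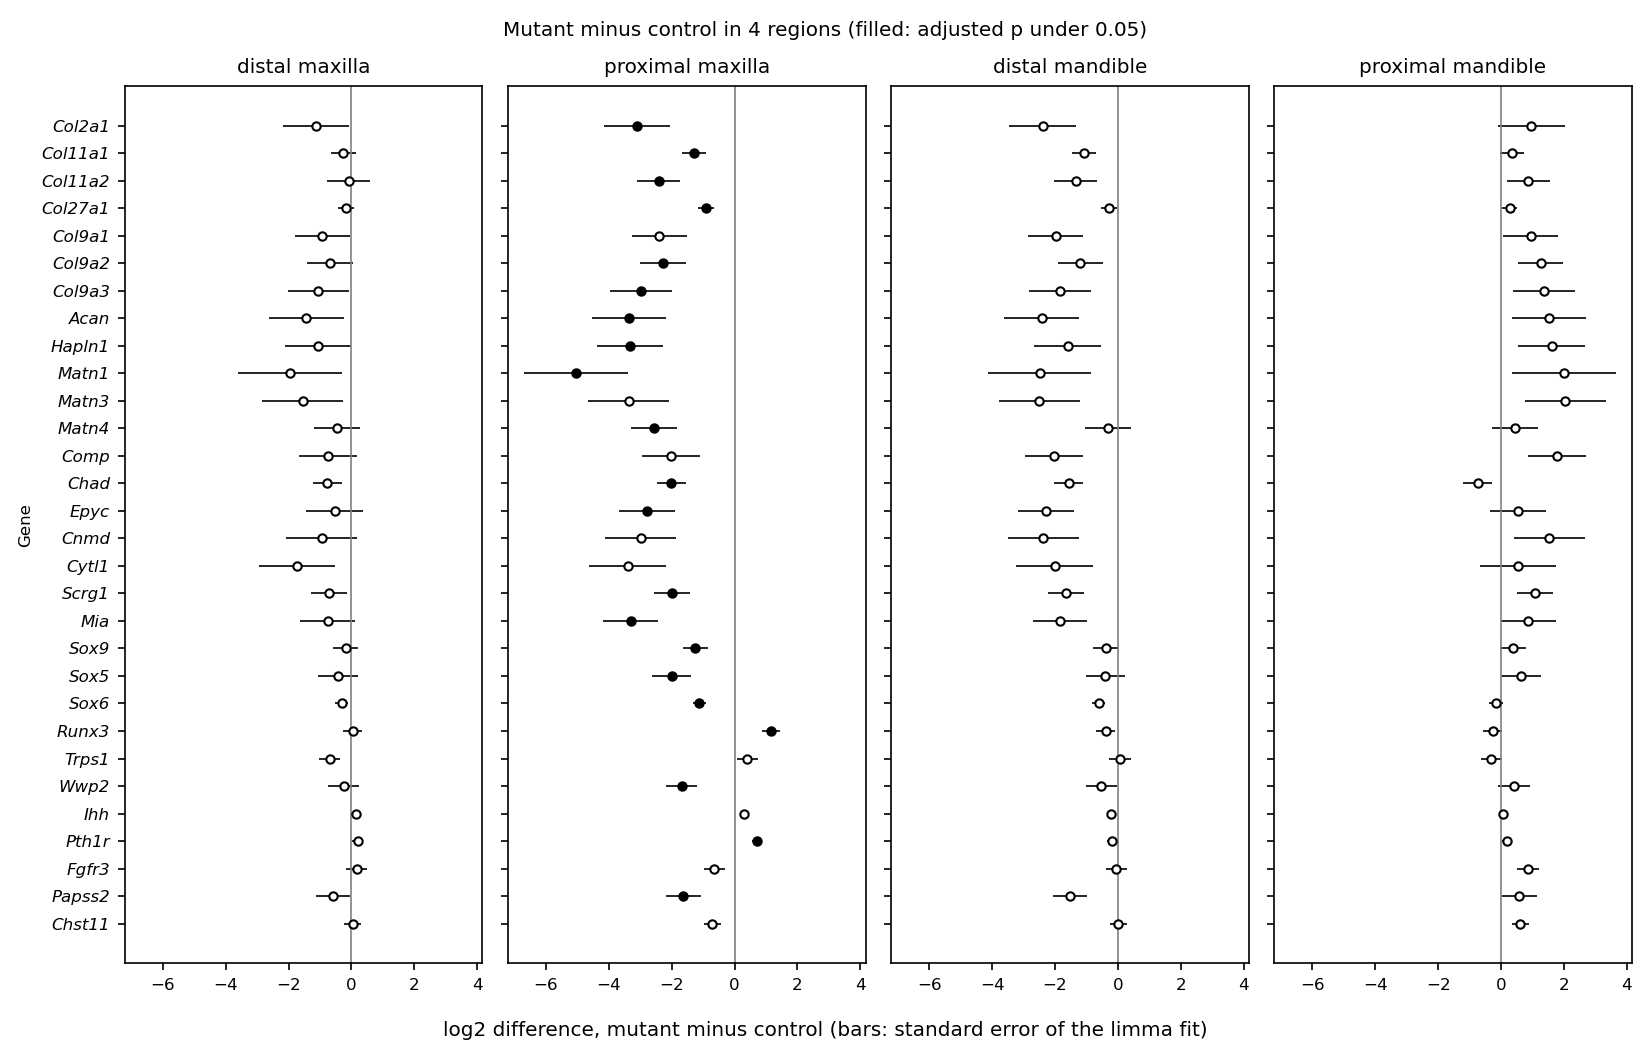
Points give the difference between mutant and control means on the log2 scale and bars its standard error from the limma fit, for the 30 tested genes in 4 regions; filled points passed an adjusted p of 0.05. Matrix genes lie left of 0 in the maxilla and distal mandible and right of 0 in the proximal mandible, Chad lies left of 0 in all 4 regions, and filled points occur only in the proximal maxilla.

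The difference between jaws was tested directly. For the mutant effect in the mandible minus that in the maxilla, averaged over ends, no member was called, where 3.93% of all tested genes were higher and 4.33% lower. The members' median was 1.04, 27 of 30 were positive, and 6 had an unadjusted p under 0.05. Runx3 had the smallest adjusted p, at -0.93 ± 0.30 (adjusted p = 0.0618). With replicate number as a block, Runx3 and Pth1r passed (adjusted p = 0.0326 and 0.0156), and the share of all genes called under that block is not given here. For the mutant effect at the proximal minus the distal ends no gene of any kind was called (0% higher and 0% lower by limma, with 982 genes at an unadjusted p under 0.05), and 1 member had an unadjusted p under 0.05.

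For the proximal ends alone, a test was added after the values had been seen, so its calls are given as a description. There 9 members were called, among 525 higher and 800 lower genes of 12811. The test draws on the low arrays mutant proximal maxilla 1 and 2. It also includes control proximal mandible 3, the lowest of its group for 29 of the 30 members. How these calls change without single arrays is not given here. The mutant effect was higher in the mandible by 4.93 ± 1.50 for Hapln1 (adjusted p = 0.0431), 4.18 ± 1.23 for Mia (adjusted p = 0.0394), 3.54 ± 1.02 for Col9a2 (adjusted p = 0.0369) and 3.29 ± 0.97 for Col11a2 (adjusted p = 0.0390). Scrg1 (3.08), Chst11 (1.34), Col27a1 (1.19) and Sox6 (0.96) were the others on that side, and Runx3 was lower (-1.42, adjusted p = 0.0417). Col2a1 at 4.07 ± 1.50 (adjusted p = 0.0868) and Acan at 4.90 ± 1.67 (adjusted p = 0.0666) did not pass. At the distal ends alone 0 members passed by limma (0 at an unadjusted p under 0.05), with 0 genes higher and 2 lower in all, and Col2a1 was at -1.26.

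Averaged over the 4 regions, with the arrays of 1 genotype and number counted as 1 unit, no member was called. Such a unit is not 1 embryo in every case, since control number 2 was Xist-low in the proximal maxilla and Xist-high elsewhere. Of all tested genes 0.703% were higher and 0.39% lower. The members' median was -0.75, 26 of 30 were negative, and 11 had an unadjusted p under 0.05. Chad stood at -1.27 ± 0.28 (adjusted p = 0.0939) and Sox6 at -0.55 ± 0.14 (adjusted p = 0.126). Chad was below the region's controls on all 9 mutant arrays outside the proximal mandible, 4 of which had Col2a1 within or above the control range, and on mutant 1 there. Sox6 was below them on the 5 low arrays and on distal maxilla 2, distal mandible 2, proximal maxilla 3 and proximal mandible 1. On distal maxilla 3 Sox6 lay above the controls. Under array weights both were called, Chad at -1.07 (adjusted p = 0.0478) and Sox6 at -0.48 (adjusted p = 0.0426), and the share of all genes called under the weights is not given here.

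Other genes of cartilage, in lists kept apart from the members, went both ways. Of 26 tested genes for other cartilage matrix and remodelling proteins, 8 fell and 6 rose in the mutant proximal maxilla, with the collagenase gene Mmp13 at -2.86, Susd5 at -2.59, the matricellular Ccn2 at -1.90 and Fbln7 at -1.87. Of 24 chondrogenic regulators 10 rose and 3 fell, among them Npr3 at 1.75, the natriuretic peptide clearance receptor, Barx2 at 1.63, Foxa3 at -1.85 and Runx1 at -1.36. Of 17 genes for proteoglycan synthesis 4 rose and 2 fell, with the sugar transporter gene Slc35d1, needed for chondroitin synthesis, at -1.39. Of 17 genes for collagen processing and secretion 2 rose and 3 fell, with the prolyl hydroxylase subunit P4ha3 at -1.25. The medians of these 4 lists were -0.37, 0.15, 0.018 and 0.063, against -2.02 for the members.

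In the mandible a small set of genes beside the members passed. In the mutant distal mandible 4 of the 26 other matrix genes fell and 0 rose: the lubricin gene Prg4 at -1.96, Fmod, which encodes fibromodulin of tendon and cartilage, at -1.48, Cilp at -1.27 and Ccn1 at -0.92. In the proximal mandible Cilp fell by 2.25 and Fmod by 1.28, and Edil3 rose by 1.03. Of the regulators, Nfatc1 fell in both mandible ends, by 1.15 distally and 0.88 proximally, and Bmp2 rose by 0.47 proximally, 1 of 24 each way there. Of the proteoglycan genes Csgalnact1, a starter of chondroitin chains, rose by 0.96 and Ugdh by 0.40 in the proximal mandible, and 0 of 17 fell. Tendon markers moved there too, as Scx fell by 1.28 distally and 1.39 proximally and 3 of 10 tested tendon genes fell at each end, Fmod being counted in both lists. The part of tendon in the Fmod value was not tested.

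In controls the proximal mandible was above the proximal maxilla in 10 of the 26 other matrix genes and below in 1, with Mmp13 at 3.38, Cilp at 2.71, Mmp9 at 2.10 and Tnc at 1.48. Collagen processing genes were higher in 12 of 17 and lower in 1, led by Loxl4 at 1.61 and P4ha2 at 1.22. Of the regulators 10 were higher and 4 lower, with Smpd3 at 1.96, Gli1, a target of hedgehog signalling, at 1.35, and Bmpr1b, a BMP receptor of condensing cartilage, at -1.72. The members of the cartilage set itself had a median of -1.06 in the same comparison. Osteoblast genes were higher in 8 of 8 and osteoclast genes in 5 of 5 there, Mmp9 being also an osteoclast gene, and the share of bone in the higher values was not tested.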

How the data were processed

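RNA of 24 jaw samples was measured on the Affymetrix array with the Mouse430_2 probe sets, 3 arrays in each of 8 groups. The deposited table holds log2 values made by the authors with RMA in Partek 6.6, per the submitters' processing notes; the sources used here do not give the settings, and all 24 columns were matched to listed samples. Of 45101 probe sets, 64 were array controls, 34945 had 1 gene symbol in the platform annotation, 932 several and 9160 none, and the last 2 kinds were not used. Each gene was represented by its probe set of highest mean. Genes above the array median on at least 3 arrays were fitted with limma 3.58.1 in R 4.3.3 (lmFit with 1 mean per group, eBayes; Benjamini-Hochberg over 12811 genes, threshold 0.05). The script was tested on simulated data. The mean of regions used averages of the 4 arrays that share genotype and replicate number.

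The members and gene lists were chosen with earlier results of these data known. All 32 members are named by role, and from each other list up to 4 genes past the threshold, largest absolute difference first. Alternatives were a replicate or animal block, a fit on only the arrays compared, no or a stricter filter, quantile normalization, the mean of a gene's probe sets, array weights, muscle and nasal list means as covariates, and leaving out arrays. Interactions within 1 end and a covariate for Xist (above the array median or not) were added after seeing the data. The number of arrays limits precision. In 1 region the standard error of a difference had a median of 0.106 over all tested genes, and those printed above for tested members were larger. Sharing a replicate number was not taken as pairing, since the labels do not say what the numbers mark. The fit to all 24 arrays thus leaves out any effect that arrays of 1 number share, which the replicate block allows for. Of 12 mutant and control pairs of 1 region and number, 9 had deviations that correlated above 0.1 (r from -0.013 to 0.51). Among arrays of 1 genotype and number in different regions 29 of 36 pairs did (highest r 0.69), and the animal block allows for this, with a consensus correlation of 0.34. Promoter windows came from RefSeq (GRCm38.p6). Figures were drawn with matplotlib 3.10.9 in Python 3.11.15.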

Additional observations from a re-analysis of the deposited data

Results flagged for a closer look

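For 9 genes the mutant effect at the proximal end was called as different between mandible and maxilla. The test was an interaction term of the limma fit with Benjamini-Hochberg adjustment. It was added after the data were seen, so the calls are a description. On the log2 scale, mandible minus maxilla, the difference was 4.93 for the link protein gene Hapln1, 4.18 for Mia, 3.54 for Col9a2, 3.29 for Col11a2 and 3.08 for Scrg1. It was 1.34 for the sulfotransferase gene Chst11, 1.19 for Col27a1 and 0.96 for Sox6. For Runx3 it was -1.42, the sign opposite to that of the matrix genes. The adjusted p-values ran from 0.0266 (Scrg1) to 0.0462 (Sox6). Nasal epithelium and muscle genes and the low arrays of the mutant proximal maxilla moved with these differences, and control proximal mandible 3 was low in its group. The part of each was not tested.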

How the results depend on the processing

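The direction of the members called in the proximal maxilla was kept under all settings except the muscle and nasal covariates. Under those it reversed, without a call, for Matn1 (1.65), Hapln1 (0.79), Acan (0.77), Col2a1 (0.70), Col9a3 (0.49), Epyc (0.41), Mia (0.31), Sox9 (0.19), Col9a2 (0.15), Sox5 (0.15), Papss2 (0.13), Matn4 (0.13) and Wwp2 (0.11), and between control proximal jaws for Matn4 (1.40), Sox5 (0.98) and Sox9 (0.66); the cause was not tested. The covariates themselves differ between the groups. The count of called members in the proximal maxilla, 21, became 2 in a fit on only the arrays compared, 30 with array weights, and 0 under the covariates or without the 3 maxilla arrays low in nasal genes, which leaves 1 mutant array there; all genes called then fell from 2984 to 25 and 159. Leaving out 1 array gave 3 to 28. Where a setting raised a count of members, the share of all genes called is mostly not given here. Such a rise cannot be read as particular to these members. In the distal mandible the count of 0 became 11 with array weights, 10 with the covariates, 1 (Mia) without the 3 maxilla arrays and 1 (Chad) with the Xist covariate, which was added after the data were seen. In the proximal mandible 0 became 1 with only the arrays compared (Fgfr3), with no filter (Col10a1), with the covariates (Trps1, -0.79) and without the 3 maxilla arrays (Fgfr3), and 2 with array weights (Fgfr3 and Chst11). Leaving out 1 array kept 0 in both mandible ends, in the distal maxilla, where all other settings gave 0 as well, and in the mean of regions, where array weights gave 2 (Chad and Sox6). For the mutant effect in mandible minus maxilla, 0 became 2 with a replicate block or an animal block, 13 with array weights and 9 at the proximal ends only, and leaving out 1 array gave 0 to 7. It was 7 without mutant proximal maxilla 3, and 1 without control distal maxilla 2, control proximal maxilla 2, mutant distal mandible 2 or mutant proximal mandible 2. For proximal minus distal, array weights gave 1 (Pth1r). Between control distal jaws, 0 became 3 with the animal block (Comp, Sox9 and Trps1), 1 with only the arrays compared (Sox9), 7 with array weights, 13 with the covariates and 2 without the 3 maxilla arrays (Sox9 and Trps1). Between control proximal jaws, 6 became 10, 14 and 12 with only the arrays compared, array weights and without the 3 arrays, and leaving out 1 array gave 3 to 6. The count was 3 without control proximal maxilla 1 or 3 or control proximal mandible 1 or 3. Along the control maxilla, 3 became 0 with only the arrays compared and 8 with array weights, with 1 to 3 on leaving out 1 array. Along the control mandible, 2 became 1 with only the arrays compared or the stricter filter, with 1 to 2 on leaving out 1 array. The replicate block changed 1 further call, adding Cytl1 in the proximal maxilla (adjusted p = 0.0373, limma). Probe sets beside that of highest mean had the same sign in 27 of 27 called comparisons. Sets near the array median are close to background, which limits what falls of Acan, Matn1, Chad or Ihh can show.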
